A study of Homo sapiens with 8 samples.

Results

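Antisense long noncoding RNA (lncRNA) genes carry the name of a sense gene followed by -AS. Their expression was examined in DLD1 cells, a human colorectal cancer line, with stable lentiviral overexpression of TRMT6/TRMT61A (OE-WT) or with the vector (CTRL). The members were the genes of the count table with the biotype lncRNA in GENCODE release 44, a symbol that ends in -AS or -AS with a number, and a mean of at least 10 raw counts over the 4 libraries. Of 1825 antisense lncRNA genes in a table of 58302 genes, 497 met this rule, and 640 of the 1825 were at 0 in all libraries. The choice by mean count used the same counts as the comparison, and the levels of the members are given as a description. TTC36-AS1, with a mean of 10.0 counts (12 and 16 in OE-WT, against 4 and 8), lay just inside the limit. FOXP4-AS1, with a mean of 9.75 (8 and 11 in OE-WT, against 4 and 16), lay just outside it.

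Each group has 2 libraries, and both groups are the same line without another treatment named in the labels. TRMT6 and TRMT61A are the subunits of the complex that places N1-methyladenosine in RNA. In both groups the cells were washed with cycloheximide, and RNA was taken from the supernatant of a centrifuged lysate. The labels do not say that the replicates were separate cultures, so the p-values measure the spread between these libraries, which may be technical.

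Antisense genes are transcribed from the strand opposite to a neighbouring gene. They can start near the partner's promoter and run away from it, lie inside the partner, or meet its 3′ end, and where exons overlap the transcripts of both genes hold complementary sequence. Some antisense transcripts act on the chromatin, splicing, stability or translation of the partner, and for many no function is known. Strand information is needed to assign a read from a shared base to one of the genes.

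TRMT6 was at 211 and 181 CPM (counts relative to the TMM-scaled depth of the library) in OE-WT and 52.6 and 55.4 in CTRL, a log2 fold change of 1.86 ± 0.08 (SE), and TRMT61A rose by 1.21 ± 0.07. The libraries summed to between 10327498 and 12379671 counts. All 7 markers of colorectal epithelium had a mean of at least 10 counts, with a summed level of 11478 to 11770 CPM in OE-WT and 10115 to 10343 CPM in CTRL. KRT8 and KRT18 made up most of this sum and rose by 0.25 and 0.30, while KRT20 fell by 1.52 (adjusted p = 7.03e-08) and CDH1 by 0.29 (adjusted p = 0.0032). Of 8 markers of blood, fibroblast and endothelial cells, 3 reached this mean, the list summed to between 3.83 and 6.22 CPM per library, and 3 of its genes (CD3E, COL1A2 and DCN) were at 0. In the same list VWF, with 5 and 6 counts in OE-WT against 30 and 14, had a log2 fold change of -1.65 ± 0.49. Of the 14133 genes tested by edgeR's quasi-likelihood test, 21.1% had a Benjamini-Hochberg adjusted p below 0.05 (called here), 9.44% higher and 11.6% lower in OE-WT. Differences in level below are log2 fold changes of OE-WT over CTRL from this test, with SE, n = 2 libraries per group.

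A sense partner was found by symbol for 490 of the 497 members, giving 478 distinct partners, of which 474 are protein-coding. In the GENCODE annotation on GRCh38, the 5′ ends of both genes overlapped in 199 pairs (divergent), the member lay inside the sense gene in 123, the 3′ ends overlapped in 112 (convergent), and the sense gene lay inside the member in 38. Another 16 divergent pairs and 1 convergent pair did not overlap, and FAM131B-AS2 lies on the same strand as its partner. DM1-AS, HOXA-AS2, HOXA-AS3, HOXB-AS1, HOXB-AS3, HOXB-AS4 and MYL12-AS1 had no partner under the name before -AS. The median member had 16.9% of its exon bases under exons of genes on the opposite strand. This share was 0 for 32 members and above 50% for 82, and 13 members lay wholly under opposite exons.

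**Figure D1:**
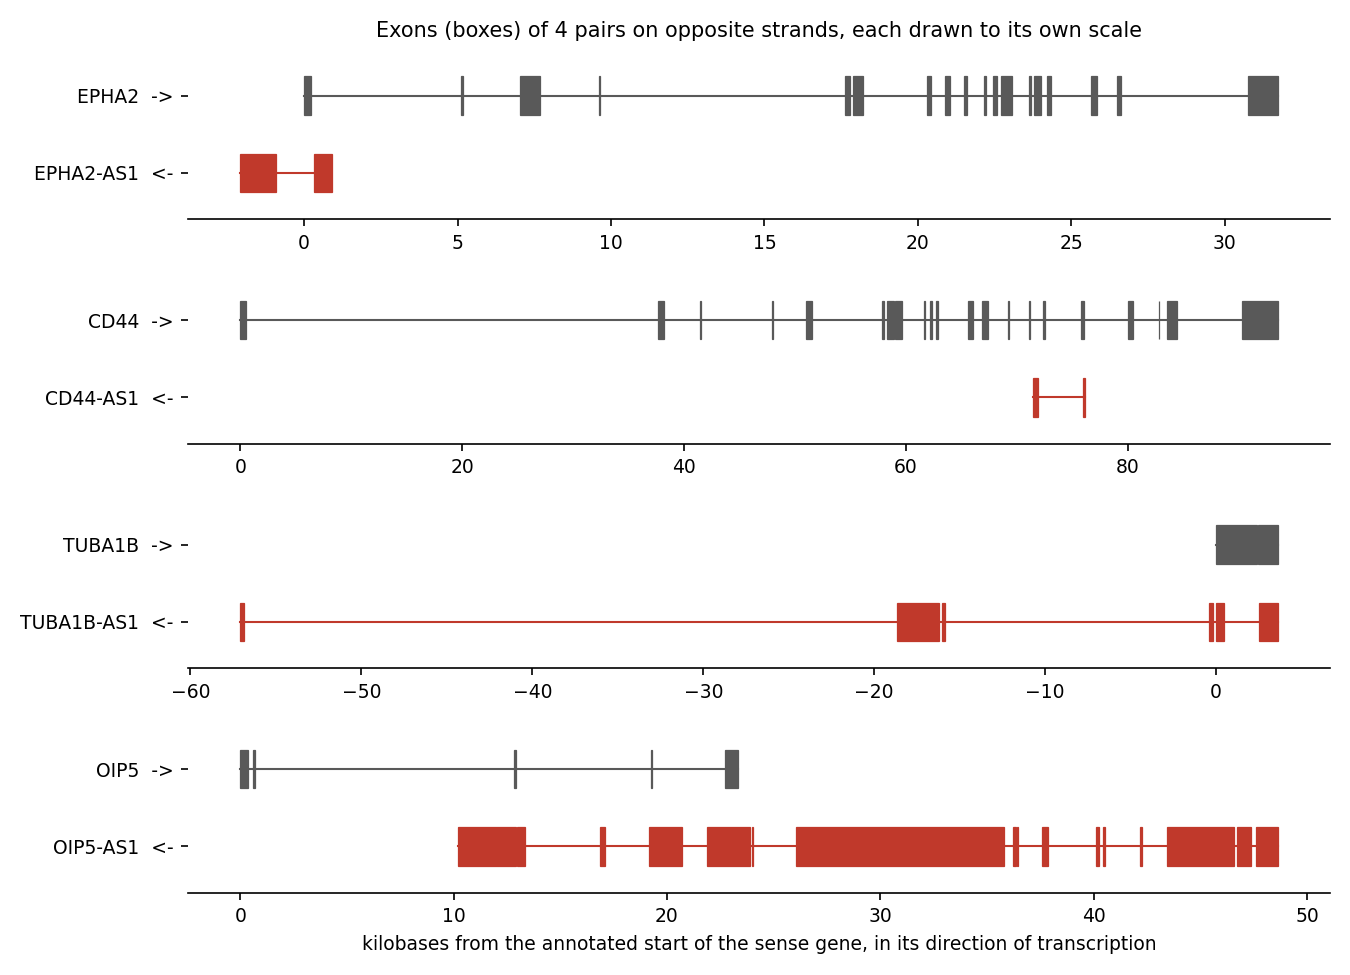
Exons of 4 antisense genes (red) and their sense genes (grey), plotted in kilobases from the annotated start of the sense gene, with each pair on its own scale. EPHA2-AS1 begins inside EPHA2, runs across its start and shares no exon base with it, CD44-AS1 lies inside its partner, TUBA1B lies inside TUBA1B-AS1, and OIP5-AS1 meets the 3′ end of OIP5.

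The labels describe a strand-specific kit, but the strand setting of the counting is not given in the sources used here. If strand was not used, reads from a gene and its antisense partner cannot be told apart. Genes that lie wholly under exons of another gene were therefore counted by the strand of that gene. Of 372 lncRNA genes lying wholly under exons of the opposite strand, 189 (50.8%) had a mean of at least 10 counts. Of 100 lncRNA genes lying wholly under exons of the same strand, 4 (4.00%) reached this mean and 84 were at 0. Protein-coding genes were split in the same way, with 8 of 13 under opposite exons and 6 of 169 under same-strand exons at a mean of at least 10. Covered genes thus held counts more often where the covering exons were on the opposite strand. The share of exon bases that a member shares with its partner is therefore given beside the values below.

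The sequences shown next are those of pairs whose values are described below. Promoters are from the RefSeq table (GRCh38.p14), from 250 bases before to 50 bases after the annotated start, 5′ to 3′ on the strand of the named gene. Capitals mark GC boxes (GGGCGG on either strand). The search also covered CCAAT and TATAAA on either strand, and neither occurred in these windows. EPHA2-AS1 and EPHA2 are shown because they were the pair called in opposite directions. EZR-AS1 and TMPO-AS1 start beside partners called in the same direction as the member. TUBA1B-AS1 had the highest level of any member, and 290 of the 300 bases of its window are also the TUBA1B window on the other strand.
EPHA2-AS1, chr1:16154965-16155264, plus strand: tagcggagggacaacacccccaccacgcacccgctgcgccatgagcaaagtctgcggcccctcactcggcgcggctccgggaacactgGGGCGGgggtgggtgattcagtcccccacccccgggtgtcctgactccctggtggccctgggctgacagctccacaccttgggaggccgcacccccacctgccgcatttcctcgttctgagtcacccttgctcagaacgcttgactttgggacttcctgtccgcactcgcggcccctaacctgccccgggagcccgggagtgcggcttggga
EPHA2, chr1:16156020-16156319, minus strand: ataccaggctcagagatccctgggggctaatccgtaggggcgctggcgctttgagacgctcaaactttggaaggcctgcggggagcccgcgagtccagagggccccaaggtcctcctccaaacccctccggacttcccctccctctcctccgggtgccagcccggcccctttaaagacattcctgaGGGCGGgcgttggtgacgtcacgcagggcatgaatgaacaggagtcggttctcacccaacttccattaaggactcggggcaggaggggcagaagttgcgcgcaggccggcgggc
EZR-AS1, chr6:158817729-158818028, plus strand: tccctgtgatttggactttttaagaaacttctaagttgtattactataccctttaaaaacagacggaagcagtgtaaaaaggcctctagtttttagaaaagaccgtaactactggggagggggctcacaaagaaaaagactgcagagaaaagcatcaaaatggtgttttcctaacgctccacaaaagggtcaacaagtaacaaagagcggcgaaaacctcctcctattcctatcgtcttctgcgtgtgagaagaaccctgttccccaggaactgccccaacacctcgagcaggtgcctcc
EZR, chr6:158818186-158818485, minus strand: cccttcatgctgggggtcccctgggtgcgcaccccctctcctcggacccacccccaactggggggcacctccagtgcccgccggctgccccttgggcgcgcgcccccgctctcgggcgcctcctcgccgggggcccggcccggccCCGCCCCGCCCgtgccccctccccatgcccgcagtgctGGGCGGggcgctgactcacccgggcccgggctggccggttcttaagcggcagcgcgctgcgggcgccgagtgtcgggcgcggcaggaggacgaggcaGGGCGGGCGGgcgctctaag
TMPO-AS1, chr12:98516177-98516476, minus strand: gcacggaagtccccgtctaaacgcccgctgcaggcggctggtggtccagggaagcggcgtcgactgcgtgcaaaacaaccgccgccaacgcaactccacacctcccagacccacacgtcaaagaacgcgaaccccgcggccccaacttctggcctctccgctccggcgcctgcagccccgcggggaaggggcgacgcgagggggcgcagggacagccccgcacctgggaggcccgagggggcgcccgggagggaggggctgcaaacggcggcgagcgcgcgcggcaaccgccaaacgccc
TUBA1B-AS1, chr12:49131356-49131655, plus strand: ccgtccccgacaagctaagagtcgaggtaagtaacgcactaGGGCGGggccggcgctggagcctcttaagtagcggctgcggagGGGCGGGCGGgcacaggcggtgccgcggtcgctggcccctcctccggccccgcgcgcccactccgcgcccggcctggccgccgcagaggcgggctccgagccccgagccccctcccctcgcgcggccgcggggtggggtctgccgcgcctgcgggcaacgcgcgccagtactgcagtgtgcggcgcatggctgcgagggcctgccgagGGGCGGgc

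The EPHA2-AS1 and EPHA2 windows held 1 GC box each and 21 and 20 CpG, and the RefSeq starts were 854 bases apart. The EZR window held 5 GC boxes and 36 CpG, whereas that of EZR-AS1 held 0 and 8. The TMPO-AS1 window had 39 CpG without a GC box, and that of TUBA1B-AS1 had 43 CpG with 4 GC boxes. A promoter was in the table for 364 member symbols. Of these, 53.0% held a GC box, 30.5% CCAAT and 6.87% TATAAA, against 68.0%, 35.8% and 8.12% of 394 partner promoters and 44.6%, 35.7% and 12.0% of all 27305 promoters. A GC box occurred in 61.5% of the 174 promoters of divergent members, 59.2% of the 76 of convergent members and 27.3% of the 77 of members inside their sense gene. Such a match describes letters in a window and is not evidence of binding.

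Coding bases that lie in exons of both genes of a pair are shown for HNRNPK-AS1, most of whose exon bases are shared with its partner. The stretch is from the hg38 genome, 5′ to 3′ on the strand of the antisense gene, so that it is the reverse complement of the coding sequence of HNRNPK. Capitals mark bases in exons of both genes, and the stretch is the whole of the 44 shared coding bases.
HNRNPK-AS1, chr9:83975462-83975505, plus strand: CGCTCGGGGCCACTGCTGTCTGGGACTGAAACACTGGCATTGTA

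Most members were low. The median mean count was 42.8, with 280 of 497 members under 50, 383 under 100 and 10 at 1000 or more. The partners in pairs had a median of 279. Per kilobase of exon, the highest members were TUBA1B-AS1 with 3818 counts per kilobase, MIF-AS1 with 2592, RPL30-AS1 with 1483, MYL12-AS1 with 1436 and HNRNPK-AS1 with 1198. Their partners TUBA1B, an alpha-tubulin whose reads may be split with close paralogs, MIF, a cytokine, RPL30, a protein of the large ribosomal subunit, and HNRNPK, an RNA-binding protein, were at 6313, 533, 1299 and 842 counts per kilobase. MYL12-AS1 lies beside the genes of the myosin regulatory light chains. The member had more counts than the partner in 42 pairs and more counts per kilobase in 131 pairs.

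TUBA1B-AS1 was at 1730 and 1790 CPM in OE-WT and 1396 and 1397 in CTRL, and it rose by 0.33 ± 0.07 (adjusted p = 0.00109). TUBA1B rose by 0.36 ± 0.07, from 1781 and 1760 CPM in CTRL to 2223 and 2318 in OE-WT. The libraries of the groups did not overlap for either gene, which also held for 231 of all 496 tested members. Of the exon bases of TUBA1B-AS1, 34.0% are also exon bases of TUBA1B. HNRNPK-AS1, with 79.2% shared, was at 43.4 and 50.5 CPM in OE-WT and 35.8 and 37.7 in CTRL, a rise of 0.36 ± 0.09 beside 0.33 ± 0.06 for HNRNPK. RPL30-AS1, with 43.8% shared, was at 235 and 236 CPM in OE-WT and 286 and 276 in CTRL, and fell by 0.26 on the log2 scale, beside a fall by 0.27 of RPL30. MIF-AS1 (325, 334, 373 and 315 CPM in the same order) and MYL12-AS1 (127, 139, 139 and 133 CPM) had overlapping groups and did not pass the test. The calls of the first 3 members were lost for TUBA1B-AS1 with library size only (adjusted p = 0.0557), for HNRNPK-AS1 by DESeq2 (0.0701) and without OE-WT replicate 2 (0.137), and for RPL30-AS1 without CTRL replicate 1 (0.0526).

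The count that the partner's mean density alone would place in the shared bases was set beside the count of the member. Over 411 tested pairs with shared exon bases, Pearson's r of both counts on the log2 scale was 0.604 and Spearman's rho was 0.587. The points share the same 4 libraries and may share reads, so no p is given. The member held a median of 2.74 times this count (quartiles 1.44 and 8.27), and 56 members (13.6%) were at or below it. PCBP1-AS1 (3420 counts against 3567) lay near it, and TUBA1B-AS1 (17638 against 9918), CD44-AS1 (110.5 against 11.2) and MIF-AS1 (3827 against 366) above it.

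**Figure D2:**
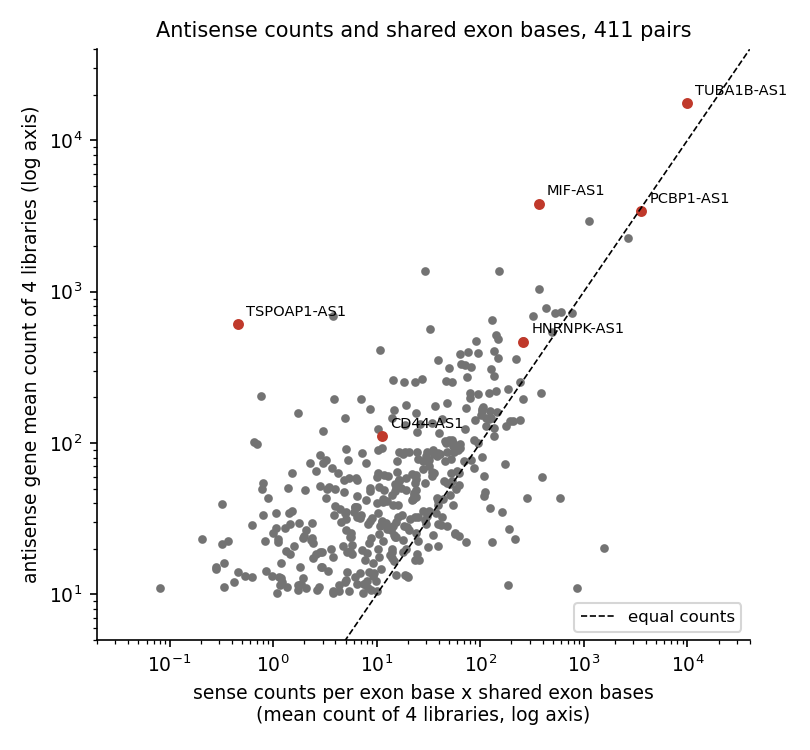
Mean count over 4 libraries of 411 antisense genes against the count expected in the exon bases they share with the partner, at the partner's density, both on log axes with the line of equal counts. Most points lie above the line, PCBP1-AS1 lies close to it, and TSPOAP1-AS1 lies far above it.

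Of 496 members tested, 46 (9.27%) were called, 25 higher and 21 lower in OE-WT, below the 21.1% of all genes tested. UGDH-AS1 did not pass the filter. The median log2 fold change was 0.04 for the members and 0.01 for all genes. Among members with a mean of 10 to 30 counts 7 of 187 (3.74%) were called, against 6.97% of all genes at this level. With 30 to 100 counts these shares were 6.67% and 12.5%, and with 100 or more 22.8% and 28.9%. Among all lncRNA genes with a mean of at least 10 counts that are not members, 132 of 1212 (10.9%) were called. Such genes include those with a symbol ending in -DT (divergent transcripts), with 5 of 132 called, and those with a LINC symbol, with 7 of 102. At an unadjusted p below 0.05 with an absolute log2 fold change above 1, 13 members passed, 9 higher and 4 lower, or 2.62% against 3.15% of all genes. The calls depended on the scaling, the tool and single libraries. With library size only, 17 members were called higher and 36 lower. DESeq2 called 4 members higher and 6 lower, the fit without CTRL replicate 1 called 14 and 10, and the fit without OE-WT replicate 1 called 11 higher.

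The largest decreases were in members beside genes of the cell surface, the lysosome and metabolism. The largest increases and decreases named were chosen among called members whose groups do not overlap. Of the 496 tested members 231 had such groups, as had 45 of the 46 called, and the share of all genes is not given. TM4SF19-AS1 was at 0.907 and 0.688 CPM in OE-WT and 2.49 and 2.60 in CTRL, a log2 fold change of -1.66 ± 0.37. Its counts, 9 and 7 against 32 and 32, reached the member limit only through CTRL, so no p is given, and it was not tested where 10 counts were asked of every library. TM4SF19, a membrane protein of the L6 family, was at 0.403, 0.197, 0.700 and 0.568 CPM in the same order and was too low to be tested. CD44-AS1, inside the hyaluronan receptor gene CD44, was at 5.34 and 6.49 CPM in OE-WT and 14.3 and 11.3 in CTRL, and fell by 1.11 (SE 0.18, adjusted p = 0.00013). Its counts were lower in both OE-WT libraries than in either CTRL library. CD44 was at 75.7 and 90.6 CPM in OE-WT and 155 and 135 in CTRL, and fell by 0.81 (SE 0.08, adjusted p = 6.78e-07), and 14.3% of the exon bases of CD44-AS1 are shared with it. CTNS-AS1, inside the gene of the lysosomal cystine transporter, was at 1.01 and 1.08 CPM against 2.10 and 2.27 in CTRL, and fell by 1.06, whereas CTNS had a log2 fold change of -0.22 ± 0.11 (adjusted p = 0.138). SELENOO-AS1, inside the gene of a mitochondrial selenoprotein, was at 1.01 and 1.08 CPM against 2.18 and 2.19, and also fell by 1.06, beside a fall by 0.56 of SELENOO. OE-WT gave 10 and 11 counts to each. Both calls were lost whichever library was left out (adjusted p of 0.124 to 0.198 for CTNS-AS1 and 0.122 to 0.198 for SELENOO-AS1). CD44-AS1 was called under each of its 10 alternatives.

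ALDH1A3-AS1, beside a gene of retinoic acid synthesis, was at 3.93 and 4.23 CPM in OE-WT and 6.22 and 7.87 in CTRL, and fell by 0.78 (SE 0.21, adjusted p = 0.0103). ALDH1A3 fell by 0.94. UBQLN1-AS1 was at 3.22 and 2.85 CPM against 4.43 and 6.01, and fell by 0.78, and UBQLN1, which brings ubiquitinated proteins to the proteasome, fell by 0.52. In both pairs the OE-WT libraries lay below the CTRL libraries for the partner and for the member, which was chosen for it. EGFR-AS1, inside the gene of the epidermal growth factor receptor, was at 2.62 and 3.14 CPM against 5.13 and 4.71, and fell by 0.77 (SE 0.24, adjusted p = 0.0254), with EGFR falling by 0.30. SLC9A3-AS1, inside the gene of a sodium-proton exchanger of the intestinal brush border, was at 6.55 and 5.50 CPM against 9.64 and 9.82, and fell by 0.69, with SLC9A3 falling by 0.80. IGFL2-AS1 was at 4.63 and 5.90 CPM against 10.0 and 7.14, and fell by 0.71, whereas IGFL2 was at 21.5 and 21.4 against 22.2 and 18.5 and did not pass the test (adjusted p = 0.701). These 2 genes do not overlap. DESeq2 lost the calls of ALDH1A3-AS1, UBQLN1-AS1, EGFR-AS1, SLC9A3-AS1 and IGFL2-AS1 (adjusted p of 0.096, 0.18, 0.194, 0.0749 and 0.116). Calls were also lost without OE-WT replicate 1 for EGFR-AS1 (0.161) and IGFL2-AS1 (0.104), without OE-WT replicate 2 for UBQLN1-AS1 (0.0887), without CTRL replicate 1 for EGFR-AS1 (0.13) and IGFL2-AS1 (0.276, at -0.44), and without CTRL replicate 2 for ALDH1A3-AS1 (0.109) and UBQLN1-AS1 (0.234). Of the partners, EGFR was at -0.17 (adjusted p = 0.177) without OE-WT replicate 2, and SLC9A3 lost its call without OE-WT replicate 2 (0.282) and without CTRL replicate 1 (0.314).

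Among the called members the largest increases were in members with few counts, where only large changes were called. TTC36-AS1 was at 1.21 and 1.57 CPM in OE-WT and 0.311 and 0.649 in CTRL, a log2 fold change of 1.53 ± 0.49. FLG-AS1, which contains the gene of the epidermal protein filaggrin, was at 2.32 and 1.57 CPM against 0.389 and 1.06, a log2 fold change of 1.43 ± 0.44 that was 0.87 without CTRL replicate 1 and 2.29 without CTRL replicate 2, and FLG had a log2 fold change of 0.78 ± 0.29 (adjusted p = 0.0598). BAZ1A-AS1 was at 1.81 and 1.77 CPM against 0.855 and 0.649, a log2 fold change of 1.24 ± 0.40, and BAZ1A, a subunit of a chromatin remodeller, did not pass the test (adjusted p = 0.139). Each of these members had a mean under 10 counts in CTRL and reached the member limit only through OE-WT, so no p is given for them. Where 10 counts were asked of every library, 1 member rather than 9 was left past an unadjusted p below 0.05 and a log2 fold change above 1, because the others were no longer tested. EPHA2-AS1, at 2.72 and 2.46 CPM against 1.17 and 1.14, rose by 1.16 ± 0.33 (adjusted p = 0.0146), on counts of 27 and 25 against 15 and 14, and its call was lost without OE-WT replicate 1 (adjusted p = 0.116), CTRL replicate 1 (0.0776) or CTRL replicate 2 (0.0625).

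The increases named next were smaller and in members with more counts. Under a mean of 30 counts the smallest absolute log2 fold change called was 1.06. The link of size to count among called members thus follows in part from the calling. GTF2I-AS1, inside the gene of a general transcription factor, was at 6.55 and 4.91 CPM in OE-WT and 2.33 and 3.57 in CTRL, a rise of 0.96 ± 0.25 beside 0.72 ± 0.15 for GTF2I, whose reads may be split with its near-identical copies. NUP153-AS1 was at 5.14 and 4.91 CPM against 2.57 and 3.17, a rise of 0.81 ± 0.24 beside 0.35 ± 0.10 for NUP153, a nuclear pore protein. In these pairs both genes were called and no library of OE-WT overlapped CTRL, which for the members was a condition of their choice. IDI2-AS1 was at 12.8 and 10.7 CPM against 6.14 and 7.31, a rise of 0.81 ± 0.17 (adjusted p = 0.00177), while IDI2, an isomerase of isoprenoid synthesis, was near 1 CPM or below with overlapping groups. AP4B1-AS1 was at 6.04 and 3.54 CPM against 2.49 and 3.08, a rise of 0.78 ± 0.27 beside 0.71 ± 0.17 for AP4B1, an adaptor complex subunit. EXOSC10-AS1 was at 3.22 and 3.73 CPM against 1.87 and 2.19, a rise of 0.78 ± 0.28 (adjusted p = 0.0492), and EXOSC10, an RNase of the nuclear exosome, had a log2 fold change of 0.09 ± 0.08. IDI2-AS1 was called under each of its 10 alternatives, and EXOSC10-AS1 under 2 of 10, with adjusted p of 0.0576 with a replicate block, 0.29 by DESeq2 and 0.0796 to 0.252 with a library left out. AP4B1-AS1 was at 0.35 (adjusted p = 0.571) without OE-WT replicate 1 and lost its call without CTRL replicate 1 (0.19) and by DESeq2 (0.224). GTF2I-AS1 and NUP153-AS1 lost theirs by DESeq2 (0.0737 and 0.155), without OE-WT replicate 1 (0.0856 and 0.0677) and without CTRL replicate 1 (0.112 and 0.151).

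**Figure D3:**
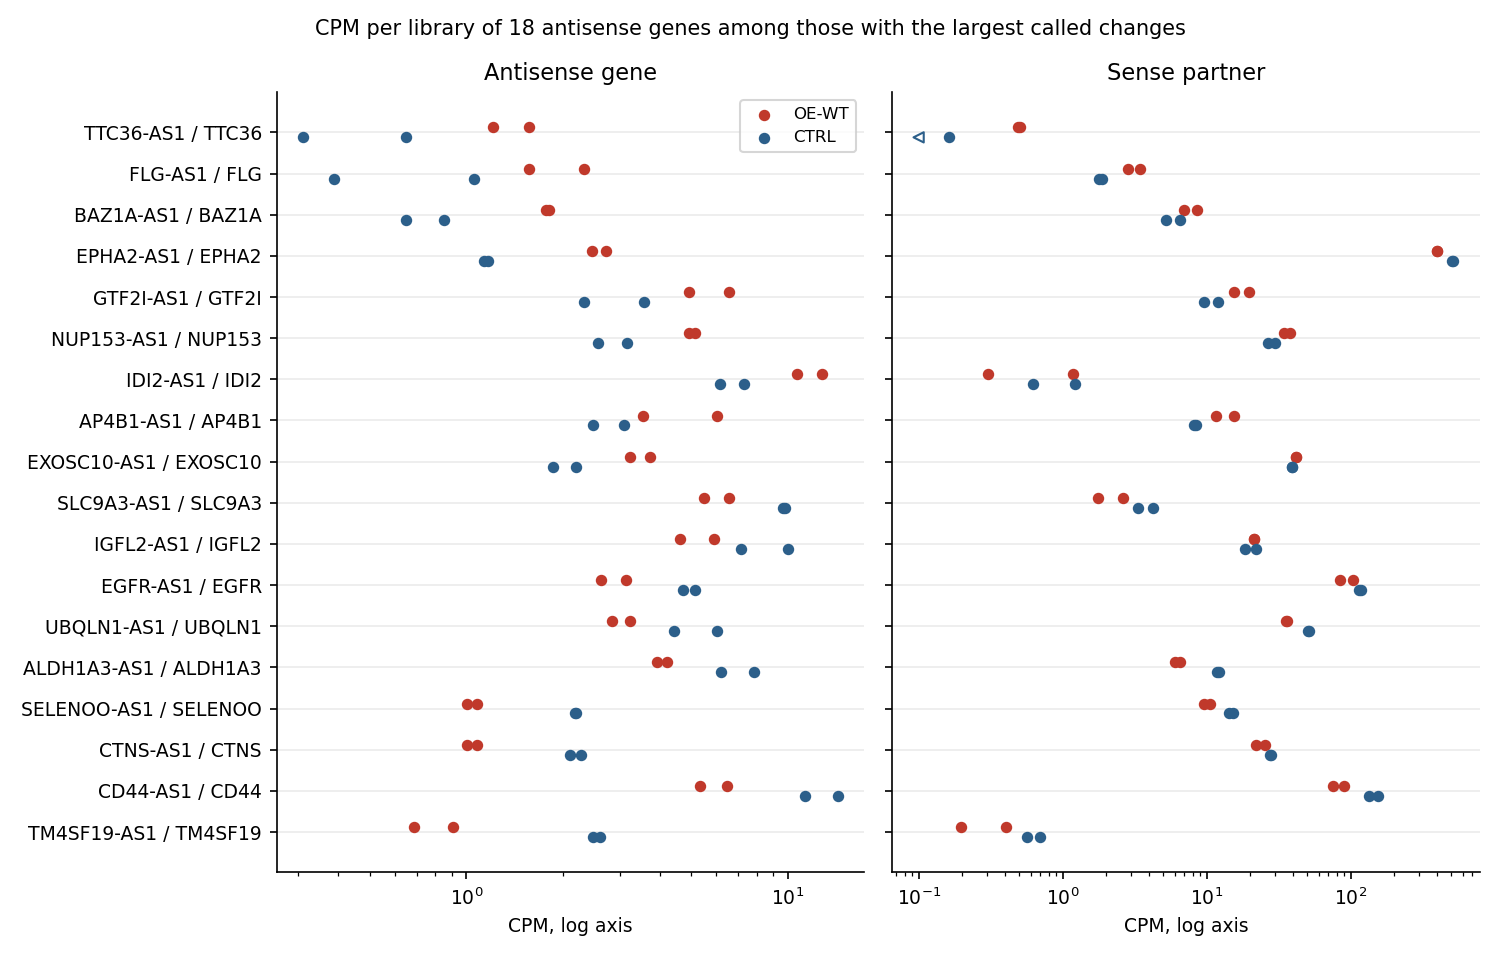
CPM of each library on a log axis for 18 of the members with the largest called increases and decreases (left) and for their sense partners (right), with OE-WT in red and CTRL in blue and an open arrow for a library at 0. The members were chosen for groups that do not overlap, so their red and blue points are apart by that choice. The partners of EPHA2-AS1, IGFL2-AS1 and IDI2-AS1 do not follow the member.

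The next question was whether a member and its partner moved together. Of 443 partners tested, 57 were called higher and 54 lower (25.1%), near the 21.1% of all genes and the 23.4% of protein-coding genes, with a median log2 fold change of 0.03. Both genes were tested in 453 pairs, and the sign of the log2 fold change was the same in 310 (68.4%). Both genes were called in 29 pairs, the same way in 28, of which 13 rose and 15 fell. The member alone was called in 14 pairs and the partner alone in 82. In the 28 pairs the median absolute log2 fold change was 0.44 for the member and 0.43 for the partner, and the member's was the larger in 16. Pearson's r over the 453 pairs was 0.464 and Spearman's rho 0.493, as a description of pairs that come from the same 4 libraries. With DESeq2 the pairs called the same way numbered 7, and without CTRL replicate 1 they numbered 10.

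Pairs that rose together included the members beside TUBA1B, HNRNPK, PCBP1, TMPO, GTF2I, NUP153 and AP4B1, described here, and, chosen after their values were seen, PRMT5-AS1. PRMT5-AS1 was at 67.8 and 73.4 CPM in OE-WT and 54.2 and 51.4 in CTRL, a rise of 0.42 ± 0.08 beside 0.43 ± 0.07 for PRMT5, a protein arginine methyltransferase. Pairs that fell together included the members beside CD44, EGFR, ALDH1A3, UBQLN1, SELENOO, SLC9A3 and RPL30, and, chosen in the same way, EZR-AS1. EZR-AS1 was at 26.4 and 28.7 CPM against 36.0 and 32.7, and fell by 0.32, as did EZR, which links actin to the membrane.

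The pairs were split by the share of the member's exon bases that lie in partner exons. In 127 pairs with under 5% of the member's exon bases shared, 56.7% had the same sign and r was 0.137. In the 182 pairs with 5 to 25% shared, these values were 73.1% and 0.581. In the 80 pairs with 25 to 50%, they were 70.0% and 0.651, and in the 64 pairs with 50% or more, 76.6% and 0.567. Of the 28 pairs called the same way, 1 had under 5% shared, PCBP1-AS1 with 3.76%, and its call was kept in 2 of 10 alternatives. In 42 pairs without a shared exon base, 42.9% had the same sign and r was -0.19. The limits of these bins were chosen after the values were seen, and no test was made between bins. In all 4286 opposite-strand pairs tested, 65.2% had the same sign, and 248 of 283 with both genes called moved the same way. Among 2230 such pairs of protein-coding genes these values were 61.7% and 109 of 138. The part of reads from shared bases in these values was not tested.

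**Figure D4:**
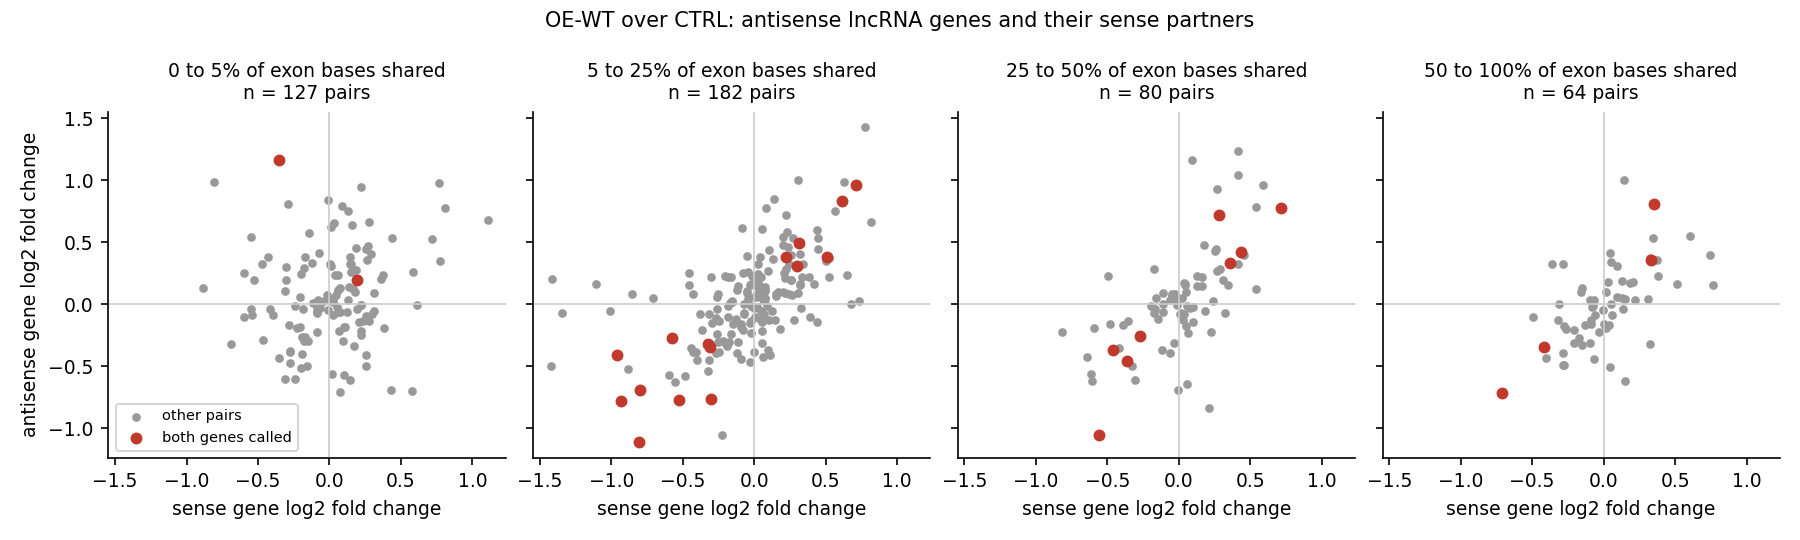
Log2 fold change (OE-WT over CTRL) of the member against that of its sense partner in 4 panels by the share of the member's exon bases that lie in partner exons, with pairs of which both genes were called in red. The points scatter widely in the first panel (r = 0.137) and give r between 0.567 and 0.651 in the others, and the only red point in an opposite quadrant is EPHA2-AS1.

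By arrangement, both genes were called the same way in 11 of 118 tested pairs with the member inside the sense gene, in 8 of 102 convergent overlapping pairs, in 7 of 190 divergent overlapping pairs and in 2 of 25 pairs with the sense gene inside. Of the members tested in these arrangements, 10.6%, 9.82%, 9.09% and 7.89% were called. Of the 16 divergent members without overlap, 0 were called by edgeR, and 2 had an unadjusted edgeR p below 0.05. DESeq2 also called 0, but it gave no adjusted p for some members with few counts, such as EPHA2-AS1. These 16 had a median of 22.5 counts, so some may not have been open to a call by DESeq2.

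A log ratio of member to partner was tested per library over the 4286 pairs with limma, which asks whether the genes of a pair changed by different amounts. It differed in 9 pairs of members, 6 with a higher and 3 with a lower ratio in OE-WT. Among all pairs 7.14% differed. EPHA2-AS1 and EPHA2, the receptor tyrosine kinase for ephrin-A ligands, differed in direction. EPHA2 was at 399 and 400 CPM in OE-WT and 515 and 507 in CTRL, a log2 fold change of -0.36 ± 0.06 (adjusted p = 0.000336), while EPHA2-AS1 rose. The log2 ratio was -7.20 and -7.35 in OE-WT and -8.79 and -8.80 in CTRL, a difference of 1.41 ± 0.30 (adjusted p = 0.0119). These genes share no exon base.

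TSPOAP1-AS1 had the largest difference, 1.48 ± 0.32. The member was at 56.0 and 59.7 CPM in OE-WT and 52.4 and 48.1 in CTRL and did not pass the test alone (adjusted p = 0.0764). TSPOAP1, a binding partner of a mitochondrial translocator protein, was at 1.01 and 0.884 CPM against 2.72 and 2.35, and fell by 1.42, a call lost without CTRL replicate 1 (adjusted p = 0.0639). HLA-F-AS1 (2.72 and 3.24 CPM against 3.03 and 2.60) overlapped between groups, while HLA-F, a nonclassical class I molecule, fell by 0.85 from 26.4 and 28.4 CPM to 14.6 and 15.7, and the ratio differed by 0.92 ± 0.25. In these pairs the partner was the gene that was called, for TSPOAP1 with the limit of its few counts.

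OIP5-AS1, also known as cyrano, was at 51.7 and 46.4 CPM in OE-WT and 44.2 and 41.6 in CTRL. OIP5, which takes part in loading the centromeric histone, was at 18.2 and 16.7 CPM against 20.4 and 22.8. Neither gene was called alone (adjusted p = 0.115 and 0.0745), and the ratio differed by 0.49 ± 0.12. PITX1-AS1 rose by 0.29 ± 0.08 (62.4 and 64.2 CPM against 51.5 and 51.9) and AFAP1-AS1 by 0.28 ± 0.07 (142 and 127 CPM against 112 and 108). Their partners PITX1, a homeobox factor of the hindlimb, and AFAP1, which binds actin filaments, were not called. Neither member was called with library size only (adjusted p = 0.098 and 0.093), nor PITX1-AS1 by DESeq2 (0.0863) or AFAP1-AS1 without OE-WT replicate 1 (0.096). The ratios differed by 0.47 ± 0.11 and 0.46 ± 0.10. PITX1-AS1 shares no exon base with PITX1, but 70.8% of its exon bases lie under exons of other genes on the opposite strand.

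The 3 pairs with a lower ratio were those of IGFL2-AS1 (a difference of -0.76 ± 0.19), BCAN-AS1 (-0.75 ± 0.20) and PSMB8-AS1 (-0.48 ± 0.12). PSMB8-AS1, which starts beside a subunit of the immunoproteasome, was at 25.4 and 23.5 CPM against 33.5 and 32.2, and fell by 0.43 (SE 0.10, adjusted p = 0.00333). PSMB8 was at 34.8 and 39.4 CPM against 34.5 and 36.6, with overlapping groups. BCAN-AS1 and BCAN-AS2 name the same partner, the matrix proteoglycan brevican. BCAN-AS1 was at 4.43 and 3.54 CPM against 5.52 and 5.76 and was not called (adjusted p = 0.108). BCAN-AS2, chosen after its values were seen, was at 15.1 and 15.1 CPM against 11.4 and 10.8, a log2 fold change of 0.44 ± 0.14. Of the 9 pairs, 4 share no exon base, beside 42 of the 453 tested pairs. Without CTRL replicate 1, limma called 0 of 456 member pairs (29 at an unadjusted p below 0.05), and without CTRL replicate 2 it called 1.

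**Figure D5:**
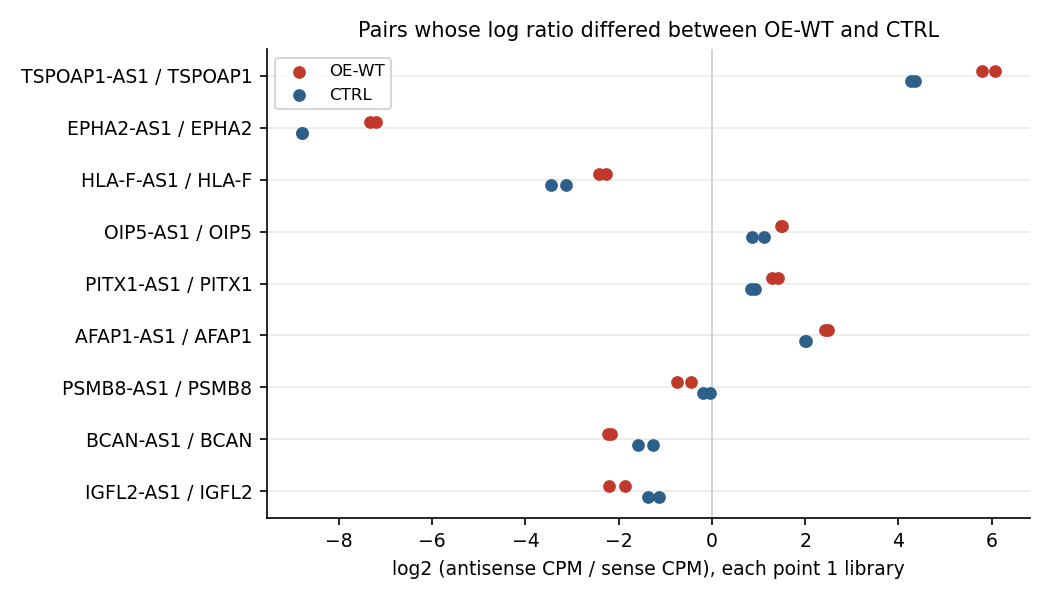
Log2 ratio of member CPM to partner CPM in each library (points) for the 9 pairs whose ratio differed, with OE-WT in red and CTRL in blue. The 2 groups are apart in every pair, and the widest gaps are those of TSPOAP1-AS1 and EPHA2-AS1.

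Partners were grouped by family from their symbols. By this rule EPHA2, a receptor tyrosine kinase, was placed with the adhesion genes and not with the kinases. Of 11 tested adhesion, matrix and cytoskeleton partners, 2 were called higher and 4 lower, and 2 of the 11 members beside them were called higher, EPHA2-AS1 and TUBA1B-AS1. Among solute carriers, channels and pumps, 1 of 11 partners was called higher and 3 lower, and 2 of 12 members were called lower, 1 of them SLC9A3-AS1. Among kinases, phosphatases and GTPase regulators, 5 of 22 partners and 1 of 23 members were called. Developmental transcription factors had 4 of 14 partners and 0 of 15 members called by edgeR, zinc finger genes 2 of 15 and 0 of 18, and genes of the ubiquitin system 2 of 15 and 1 of 15. DESeq2 also called 0 members beside the developmental factors and 0 beside zinc finger genes, and 2 and 0 of them had an unadjusted edgeR p below 0.05. DESeq2 gave no adjusted p for some members with few counts, and how many of these it covered is not given here. These shares are to be read beside the 21.1% of all genes.

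The 7 members of the HOX clusters ranged from 37.75 to 1081 mean counts. Their log2 fold changes lay between -0.002 and 0.65, 6 of 7 above 0, and the lowest adjusted p was 0.0667, for HOXB-AS3. Of all 496 members tested, 267 had a log2 fold change above 0. By edgeR 0 of the 7 were called and 5 had an unadjusted p below 0.05, and DESeq2 called 0. The share of all genes with such an unadjusted p is not given here. This count and those of the groups above therefore stand without it. Of a list of 65 well-known antisense lncRNAs, 59 were in the table, 33 were members, and 4 (12.1%) were called, against 9.27% of all members and 21.1% of all genes. TMPO-AS1, divergent from the gene of lamina-associated polypeptide 2, was at 18.4 and 17.3 CPM in OE-WT and 11.3 and 14.1 in CTRL, a rise of 0.49 ± 0.14 beside 0.31 ± 0.08 for TMPO, and the call of TMPO-AS1 was lost by DESeq2 (adjusted p = 0.0979) and without CTRL replicate 1 (0.196). PCBP1-AS1, at 321 and 328 CPM against 284 and 285, rose by 0.19 ± 0.06, as did PCBP1, an RNA-binding protein, by 0.19 ± 0.06. The calls of PCBP1-AS1 and PCBP1 were each kept in 2 of 10 alternatives, and for PCBP1-AS1 the adjusted p was 0.102 by DESeq2, 0.116 with a replicate block, 0.429 with library size only (at 0.10) and 0.0659 to 0.155 with a library left out. AFAP1-AS1 rose and EGFR-AS1 fell, as given above. CDKN2B-AS1, or ANRIL, had 1 count in each OE-WT library, and 0 and 1 in those of CTRL, under the limit of 3 counts that a count of 0 allows (0.290 CPM in the smallest library), and was no member. Its neighbour CDKN2A, with 4 and 6 counts in the OE-WT libraries against 21 and 14, had a log2 fold change of -1.46 ± 0.49, and CDKN2B had a log2 fold change of -0.30 ± 0.21 (adjusted p = 0.335).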

How the data were processed

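RNA sequencing of DLD1 cells gave 2 OE-WT and 2 CTRL libraries, each run in 2 lanes held in 1 column. The deposited values are raw counts per gene, which the authors made after trimming with Cutadapt and alignment to GRCh38 with HISAT2. The paper names HTSeq for counting, and the submitters' processing notes name featureCounts 2.0.0. The paper describes removal of ribosomal RNA and 3 replicates, and the labels poly(A) selection and 2 replicates. The annotation release and the strand setting are not given in the sources used here. Biotypes, symbols and exons came from GENCODE 44, which matched 57532 identifiers.

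Counts were tested with edgeR 4.0.16 in R 4.3.3 (filterByExpr with a minimum of 10, TMM normalization, quasi-likelihood test, no replicate block). Log ratios (log2 CPM, pseudocount 2) were tested with limma 3.58.1 over all opposite-strand pairs, including starts within 1 kb. P-values were adjusted by the Benjamini-Hochberg method. Members and lists were chosen with earlier results of these data known. Named members were the 10 largest called increases and decreases without overlap of the groups, those called that also passed an absolute log2 fold change above 1 at p below 0.05, opposite pairs, the 5 highest per kilobase, pairs with a called ratio, and called members of the well-known list, with their partners. Any other member is marked in the text as picked with its values in view. Some members that met these rules are not reported here. In simulated counts of 13897 genes, edgeR recovered 77.6% of genes changed by a log2 fold change of 1, and DESeq2 61.2%. Of the edgeR calls, 2.84% were unchanged genes. Fewer genes were changed there than were called in the data. These shares cover all genes, not the members, whose counts were lower. For log ratios over 4164 simulated pairs, 42.3% of differences of 1 were recovered. The other settings were scaling by RLE or by library size alone, DESeq2 1.42.0 as the tool, other filters, a replicate block, each library left out, a mean of 50 counts, partners by coordinates and a pseudocount of 0.5. Counting limits cover counting error only.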

Additional observations from a re-analysis of the deposited data

How the results depend on the processing

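With library size only, 17 members were called higher and 36 lower, 5 passed p below 0.05 with a log2 fold change above 1, and the medians were -0.055 for members and -0.066 for partners, of which 30 were called higher and 88 lower. That scaling moved the median of all genes from 0.0101 to -0.0816. DESeq2 called 4 members higher and 6 lower, left 2 and 2 past both thresholds, called 26 partners higher and 29 lower, and gave 7 pairs called the same way and 0 opposite. It gave no adjusted p for some members with few counts, EPHA2-AS1 among them, so the opposite pair could not be called. When all genes with at least 1 count were tested, 35 partners were called higher, the partner median was 0.0062 and 17 pairs were called the same way. With 10 counts asked of every library, 1 member was past both thresholds upwards. At a mean of at least 50 counts, 16 members were called higher, and 0 and 1 were past both thresholds, where fewer members were counted. Leaving out each library in turn, which assumes that the lone library of a group varies like the others, gave 11 to 20 members higher and 10 to 21 lower, 7 to 14 and 3 to 6 past both thresholds, medians of 0.0084 to 0.032 for members and 0.00094 to 0.020 for partners, 33 to 59 partners higher and 40 to 50 lower, 10 to 22 pairs called the same way and 0 to 1 opposite, and 0 to 12 log ratios higher and 0 to 5 lower. For the other changes the cause was not tested. With the replicate block, 23 members were called higher and 20 lower, 45 partners higher and 49 lower, 23 pairs the same way and 1 opposite, and 6 log ratios higher and 2 lower. Same-numbered libraries deviated from their group means with a correlation of -0.068 over the genes tested. Whether they shared a batch or a culture was not tested. Of 634 results of 65 single genes under these alternatives, 520 kept their direction and side of the threshold, 97 lost the call, 4 gained one and 13, of 7 genes that passed the test neither before nor after, changed sign. With library size only, EXOSC10 (-0.0060), HLA-F-AS1 (-0.0089), IGFL2 (-0.017) and PSMB8 (-0.029) turned below 0. With a library left out, HLA-F-AS1 ranged from -0.060 to 0.21, IDI2 from -1.57 to 0.37, IGFL2 from -0.046 to 0.21, MIF-AS1 from -0.17 to 0.066, MYL12-AS1 from -0.11 to 0.042 and PSMB8 from -0.042 to 0.15. At this depth 383 of the 497 members had under 100 counts, which limits the changes that can be detected.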
